A study of Mus musculus with 6 samples.

Results

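Axon guidance ligands and receptors were read in the neocortex of adult mice that lack the neuronal RNA-binding protein HuD and of their wildtype littermates. The genes were chosen by name from the table of all libraries, by the starts of the symbols of semaphorins, plexins, ephrins, Eph receptors, Slits, Robos and Unc5 receptors, with *Nrp1*, *Nrp2*, *Ntn1*, *Ntn4*, *Ntng1*, *Ntng2*, *Dcc* and *Neo1* added by name, so that the rule uses no measured value. This gave 68 of 13299 genes. They comprise 20 semaphorins, 9 plexins, 2 neuropilins, 7 ephrins, 12 Eph receptors, 3 Slits, 4 Robos, 4 netrins and 6 netrin receptors, or 34 ligands and 33 receptors. The remaining gene, *Unc50*, was matched only because its symbol starts like those of the Unc5 receptors, and it is not a netrin receptor.

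The study asked how loss of HuD alters splicing and polyadenylation in the cortex, and gene levels were measured in the same RNA-seq libraries. Cortices came from adult male mice of about 3 to 4 months, 3 controls and 3 HuD KOs, 1 library per mouse. HuD KOs (*Elavl4*-/-) carry a PGK-Neo vector in place of exon 2 of *Elavl4*, which shifts the reading frame in every cell of the animal, and controls were wildtype at this gene. Both genotypes share the C57BL/6 background, and no treatment is named for either. Levels are FPKM, the fragments of a gene scaled by transcript length and by the fragments mapped in the library. HuD KO replicates 1 and 3 were compared with the 3 controls, because the study excluded 1 HuD KO replicate as an outlier in a principal component analysis and its deposited tables name HuD KO 2 as the one excluded, and every comparison was also made over all 6 libraries.

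Axon guidance molecules steer growing axons by attraction and repulsion and, in the adult brain, take part in the upkeep of synapses, blood vessels and glia. Semaphorins signal through plexins, with neuropilins as co-receptors for most secreted class 3 semaphorins. Ephrins are bound to the membrane and activate Eph receptor tyrosine kinases on neighbouring cells, Slits bind Robo receptors, and netrins bind Dcc, neogenin and the Unc5 receptors. HuD is a neuronal member of the Hu family, and it binds U-rich and AU-rich elements, mostly in 3′ UTRs, where it is best known for stabilizing mRNAs.

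Because HuD binds AU-rich elements, the 3′ UTRs of the 68 genes were searched on the mRNA strand for the pentamer ATTTA and for the nonamer TTATTTATT, which contains that pentamer. The nonamer was found in 7 of the 68 genes (10.3%), beside 8.71% of the 12749 genes of the table with a 3′ UTR of at least 100 bases. These 7 were *Sema3b*, *Sema6a*, *Sema6c*, *Plxna1*, *Epha3*, *Robo1* and *Unc5d*. The windows of 6 of them are shown first, with the nonamer in capitals, and that of *Efna3*, the ligand gene with the smallest p over 5 libraries in the comparison of genotypes, is shown last, with its single pentamer in capitals. All are given in mm10, from 5′ to 3′ on the strand of the mRNA.
*Unc5d* (chr8:28650745-28650774, minus strand): tagactcaagTTATTTATTcatccttgtga
*Epha3* (chr16:63543748-63543777, minus strand): tttatagataTTATTTATTtctcgcaacac
*Robo1* (chr16:73046058-73046087, plus strand): ttttgtcataTTATTTATTaaaaatgttct
*Plxna1* (chr6:89318632-89318661, minus strand): catgttcccgTTATTTATTccccgcctcct
*Sema6c* (chr3:95173372-95173401, plus strand): tcgcctcggtTTATTTATTgacttgtcttt
*Sema3b* (chr9:107598595-107598624, minus strand): aaagggtagcTTATTTATTaacaagataac
*Efna3* (chr3:89313975-89314004, minus strand): tctcagaatatcATTTAtgtgtcactactt

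The nonamer of *Unc5d* starts 2004 bases after the stop codon, in a 3′ UTR of 6051 bases that holds 13 pentamers. Long UTRs hold more motifs by length alone, and 23.4% of the 534 genes with a UTR of like length had the nonamer. The 68 genes had a median 3′ UTR of 1730.5 bases, beside 1289 over the table. Their median density of pentamers was 1.32 per 1000 bases, beside 1.37 over the table. A match in these letters is a description of the sequence and not a measured site of HuD binding.

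*Elavl4*, the targeted gene, was at 34.2, 30.4 and 28.3 FPKM in the controls and at 1.70, 1.07 and 1.52 FPKM in the HuD KOs. Here and below, the values of a genotype are given in the order of replicates 1, 2 and 3. Every HuD KO library was far below every control, as labelled. The log2 fold change was -3.61 (SE 0.107, adjusted p = 0.000687 in limma) over 5 libraries and -3.72 (adjusted p = 0.000121) over 6.

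Libraries of 1 genotype differed from each other in mRNAs known from brain regions and cell types. Hypothalamic neuropeptide mRNAs (7 found of 8 listed) summed to 283.7 FPKM in control 3, with *Pmch* at 127.0 and *Avp* at 77.9 FPKM, and to between 1.59 and 4.41 FPKM in the 5 other libraries. In those others *Hcrt* and *Pmch* are listed at 0 in control 1, *Avp* in control 2, and *Hcrt*, *Oxt* and *Agrp* in HuD KO 3. The 8 striatal neuron markers summed to 64.5, 65.2 and 234.3 FPKM in controls 1, 2 and 3, and to 232.3, 140.6 and 74.9 FPKM in HuD KOs 1, 2 and 3. The 4 choroid plexus markers found of 6 listed summed to 298.2 FPKM in control 3, 161.4 in HuD KO 1 and 88.8 in HuD KO 3, and to at most 6.13 in the others. Upper layer neuron markers had their lowest sum in control 3, at 118.2 FPKM beside 160.3 to 193.6 FPKM in the other libraries. As labelled, genes of cortical excitatory neurons were high in every library, with *Slc17a7* at 95.4 to 217.1 FPKM and *Tbr1* at 15.9 to 35.1 FPKM. Since FPKM carries no counts, sequencing depth is unknown and no interval from counting can be set on a value.

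**Figure D1:**
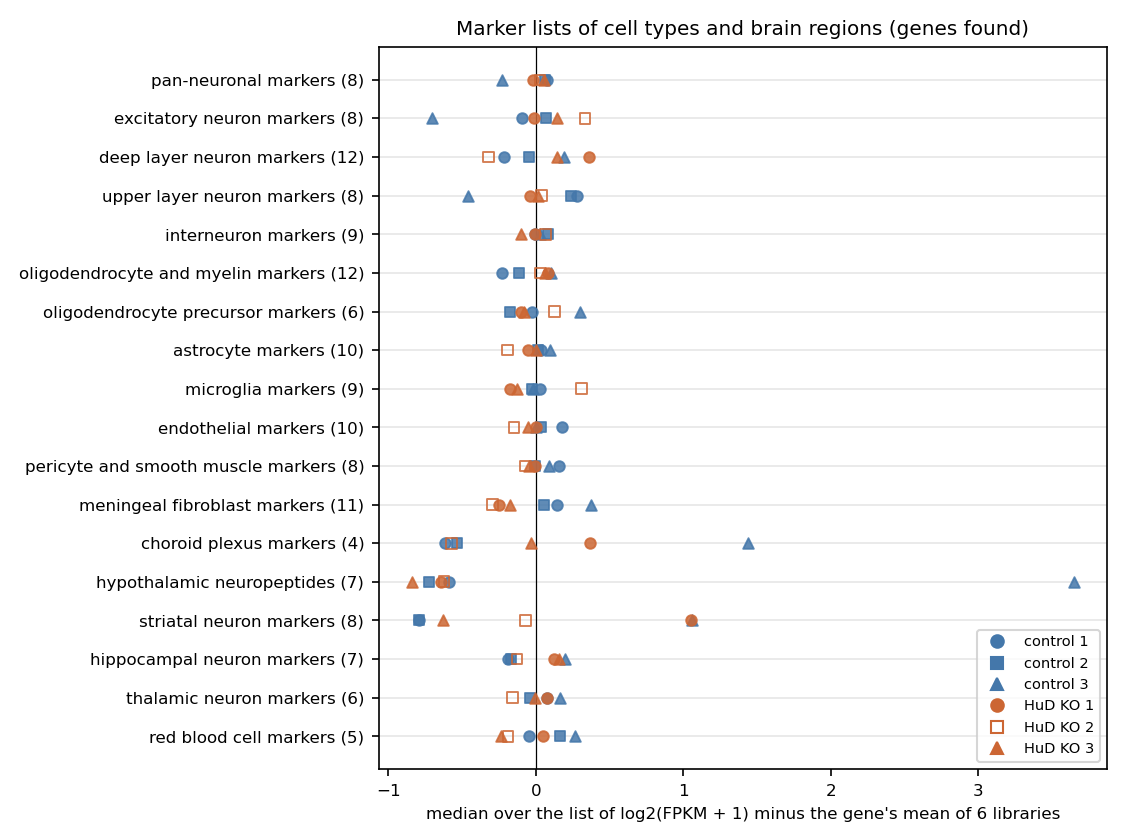
Median over each marker list of log2(FPKM + 1) minus the gene's mean over the 6 libraries (x axis), for 18 lists of cell types and brain regions with the number of genes found in parentheses. Control 3 stands at 3.65 for hypothalamic neuropeptides, 1.44 for choroid plexus and -0.46 for upper layer neuron markers, and HuD KO 1 shares its high striatal markers (1.05 beside 1.06).

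The guidance genes were expressed at low to middle levels in all 6 libraries. The median over the 68 genes of the mean FPKM was 3.91, beside 5.78 over all genes of the table. A mean of at least 1 FPKM was reached by 66 of them, of at least 5 FPKM by 30, and of at least 20 FPKM by 5. Together they summed to 464.2, 490.5 and 482.8 FPKM in controls and to 499.1, 530.4 and 495.3 FPKM in HuD KOs. This is between 0.205% and 0.245% of the FPKM of a library, and each HuD KO sum was above each control sum, by 4.82 FPKM for the nearest pair. As a share of the FPKM of the library the groups overlapped, since HuD KO 3 lay below control 2.

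Among ligands, *Sema7a*, which encodes a membrane-anchored semaphorin that binds plexin C1 and integrins, had the highest mean, 52.7 FPKM, and only 5.29% of the genes of the table were at or above it. *Sema6b*, a transmembrane semaphorin of plexin A receptors, followed with 27.6 FPKM. *Efnb3*, an ephrin known from the midline of the spinal cord, had 20.7 FPKM, and *Efna3*, a membrane-anchored ephrin, had 18.7 FPKM. Among receptors the order was *Ephb6* (31.8 FPKM), an Eph receptor whose kinase domain is inactive, *Epha4* (27.8 FPKM), which binds ephrins of both classes, *Unc5a* (17.8 FPKM) and *Plxnd1* (15.3 FPKM). The means of *Ephb6* and *Epha4* did not differ beyond the spread of the libraries, which ran from 13.9 to 47.3 FPKM for *Ephb6* and from 17.1 to 32.8 FPKM for *Epha4*. The lowest means were those of *Sema3b* (0.613 FPKM), *Sema3d* (0.983), *Robo4* (1.03), *Dcc* (1.11) and *Epha8* (1.13). Of these, *Robo4* is known from endothelial cells and *Dcc* is the main receptor for attraction by netrin-1.

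**Figure D2:**
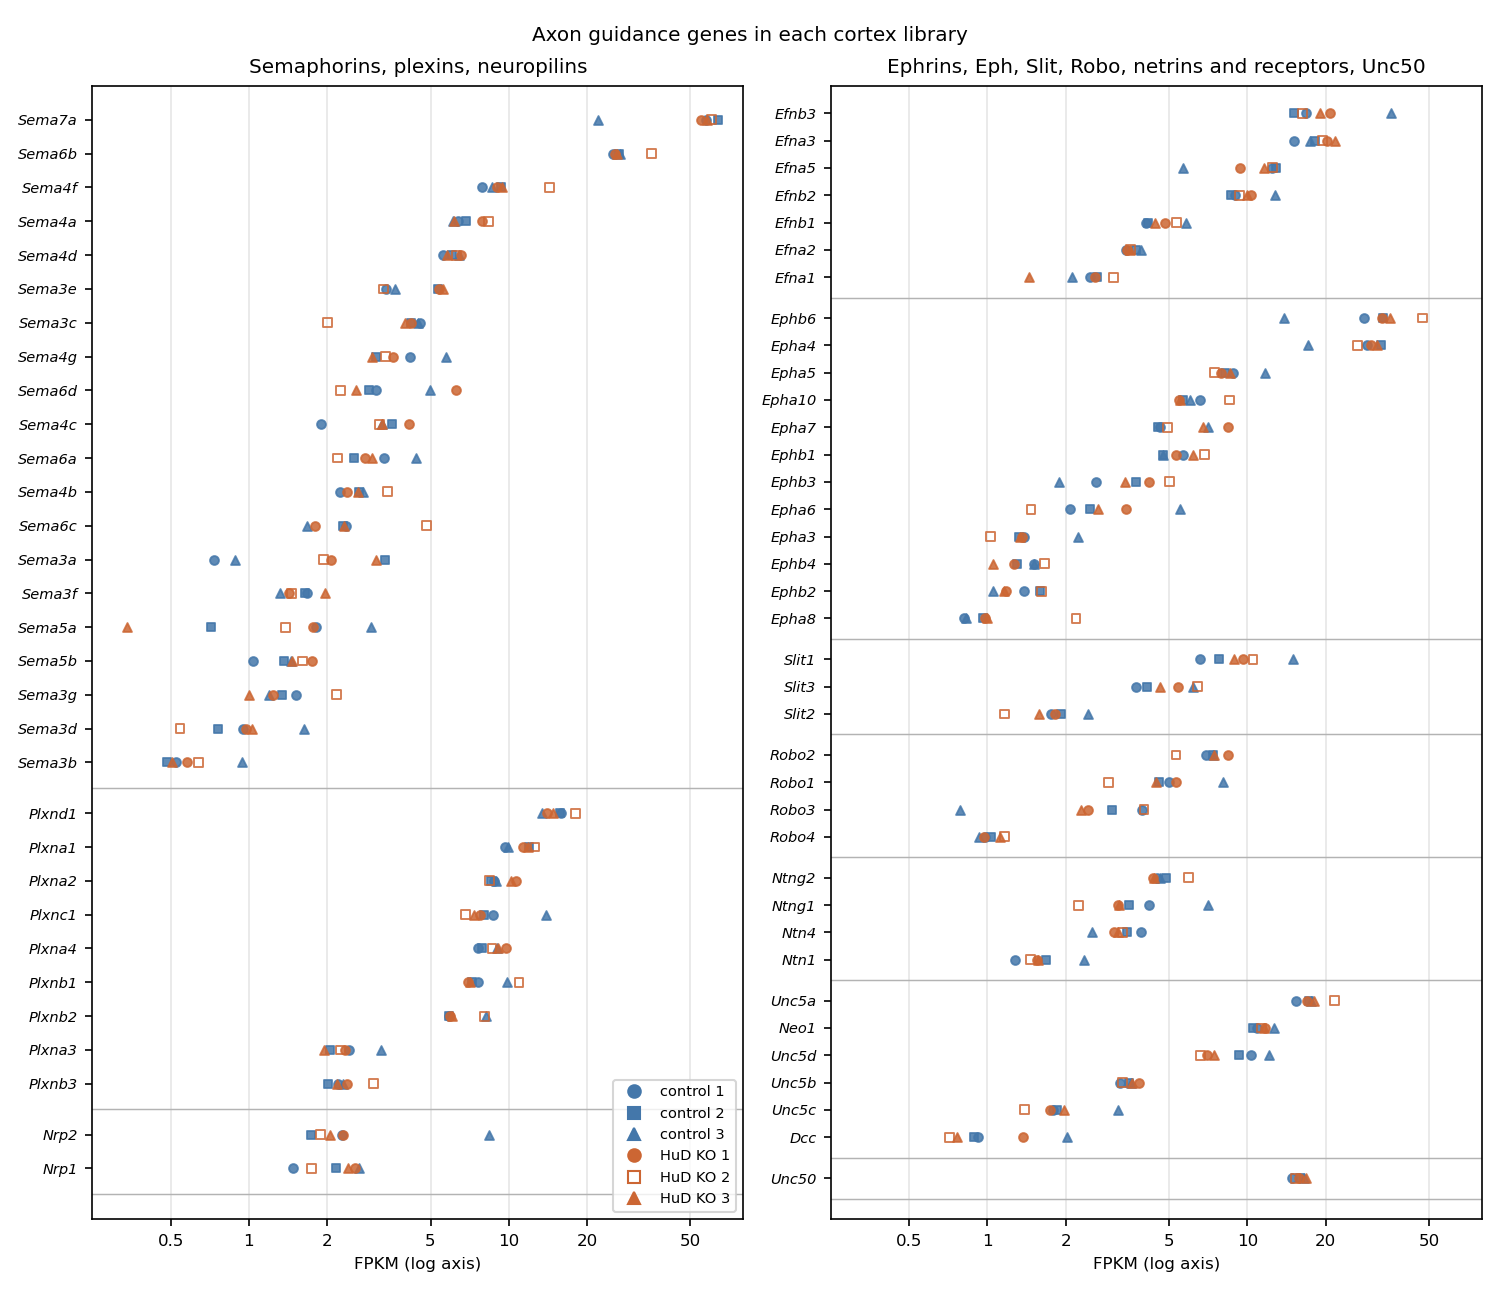
FPKM of each of the 68 genes in each library (log axis), with families separated by lines and genes ordered by their mean within a family. Means run from 0.613 FPKM for *Sema3b* to 52.7 FPKM for *Sema7a*, and control 3 (blue triangles) lies apart for genes such as *Sema7a* (22.002 FPKM), *Nrp2* (8.36) and *Efnb3* (35.8).

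In the comparison of genotypes no guidance gene passed the test, in either direction. All 68 genes passed the filter of a mean of at least 0.5 FPKM, so each was tested. At an adjusted p under 0.05 in limma, 0 of 68 passed over 5 libraries, where 6 of all 13121 genes tested did (0.0457%), and 0 of 68 passed over 6 libraries, where 4 of 13114 did (0.0305%). The smallest adjusted p was 0.995 over 5 libraries and 0.871 over 6. At an unadjusted p under 0.05 there were 3 of 68 (4.41%, beside 3.43% of all genes tested), with *Efna3* and *Plxna2* on the higher side in HuD KOs (2.94%, beside 1.62%) and *Unc5d* on the lower (1.47%, beside 1.81%). Over all 6 libraries there were 4 (5.88%, beside 3.48%), with *Efna3* and *Ephb3* on the higher side (2.94%, beside 1.63%) and *Unc5d* and *Ntng1* on the lower (2.94%, beside 1.85%). With so few genes, each of these shares moves by 1.47 percentage points per gene.

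The median log2 fold change over the 68 genes was -0.0068 over 5 libraries, with 34 genes above and 34 below 0, beside a median of -0.017 over all genes tested. Over 6 libraries it was 0.042, with 39 above and 29 below, beside -0.010. All log2 fold changes are differences of means of log2(FPKM + 1), HuD KO minus control, and so understate the FPKM ratio of genes of low level. The 95% interval over 5 libraries lay within 0.5 of 0 for 33 of the 68 genes (48.5%, beside 70.7% of all genes) and within 1 of 0 for 60 (88.2%, beside 93.9%). The 8 others had intervals that reached past 1 in at least 1 direction, so these data do not show that their levels were alike. Nor does an interval within 1 of 0 show it. The 60 include *Unc5d* (-0.80 to -0.18) and *Efna3* (0.038 to 0.55), whose intervals left out 0 before adjustment. For genes of low level, the same bounds allow larger FPKM ratios.

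**Figure D3:**
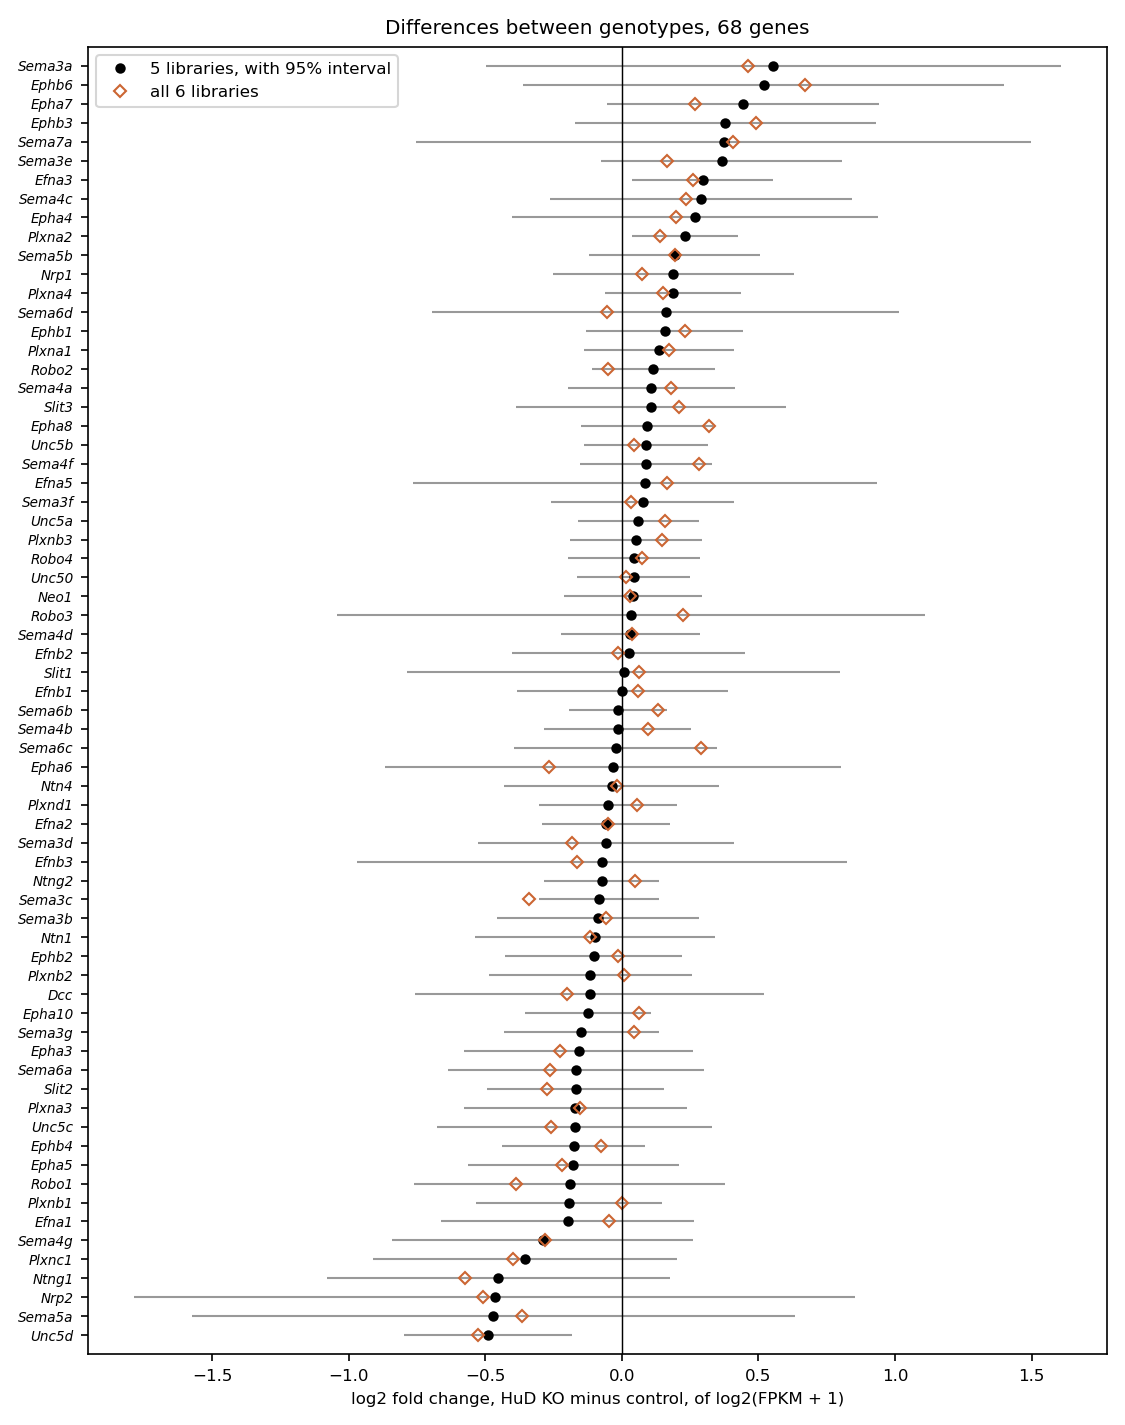
Log2 fold change of each of the 68 genes, HuD KO minus control, on the log2(FPKM + 1) scale, with the 95% interval over 5 libraries (black) and the value over all 6 (open diamonds). Values run from -0.49 for *Unc5d* to 0.55 for *Sema3a*, and the intervals of 3 genes, *Efna3*, *Plxna2* and *Unc5d*, do not hold 0 before adjustment.

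Groups that did not overlap were counted as well. Over 5 libraries this was so for 15 of the 68 genes (22.1%, beside 19.2% of all genes tested), 8 with higher (11.8%, beside 8.2%) and 7 with lower values in HuD KOs (10.3%, beside 11.0%). Over 6 libraries it was so for 6 (8.82%, beside 10.1%). On the higher side these were *Efna3*, *Epha8* and *Sema5b* (4.41%, beside 4.43%), and on the lower side *Ntng1*, *Plxnc1* and *Unc5d* (4.41%, beside 5.7%). For each of these 6 genes the two-sided exact permutation test gave p = 0.2 over 5 libraries and p = 0.1 over 6, the smallest that 3 against 2 and 3 against 3 libraries allow.

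Among the receptors, *Unc5d* had the smallest p. It encodes a receptor for repulsion by netrins that also binds Flrt2 and is known from layer 4 of the cortex (chr8:28646717-29219636, minus strand). It was at 10.3, 9.30 and 12.1 FPKM in controls and at 6.98, 6.59 and 7.44 FPKM in HuD KOs. Every HuD KO library was below every control, and the lowest control and the highest HuD KO were 1.86 FPKM apart. The FPKM ratio over 5 libraries was 0.681, and the log2 fold change was -0.49 (SE 0.124, 95% interval -0.80 to -0.18, unadjusted p = 0.0086, adjusted p = 0.995 in limma). Over 6 libraries it was -0.53 (unadjusted p = 0.00361, adjusted p = 0.871). Without control 3, where it was highest, the value was -0.40 over the 4 remaining libraries and -0.43 with HuD KO 2 added. Upper layer neuron markers, which include the layer 4 gene *Rorb*, had median deviations of 0.28, 0.24 and -0.46 in controls and -0.04, 0.04 and 0.02 in HuD KOs. *Unc5d* was highest in control 3, where these markers were lowest, while in controls 1 and 2 both lay above every HuD KO library. The part of these markers in the values of *Unc5d* was not tested. In bulk tissue, fewer cells of a type and less RNA per cell cannot be told apart. Gene models on the same strand (*Gm9911*, *Gm45652* and *Svet1*) lie within the *Unc5d* locus, and the levels do not separate isoforms.

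The groups of the other netrin receptors overlapped over 6 libraries. *Unc5a* was at 15.4, 17.3 and 17.5 FPKM in controls and at 17.0, 21.6 and 17.99 FPKM in HuD KOs (log2 fold change 0.061, 95% interval -0.16 to 0.28). *Unc5b*, known from the tips of growing vessels, had a log2 fold change of 0.089 and *Unc5c* one of -0.17. Neogenin (*Neo1*), the receptor for netrins and for repulsive guidance molecules, was at 10.9, 10.5 and 12.7 FPKM in controls and at 11.7, 11.3 and 11.6 FPKM in HuD KOs. Its log2 fold change was 0.040 (-0.21 to 0.29), so that its interval was among the 33 within 0.5 of 0. *Dcc* was at 0.916, 0.886 and 2.02 FPKM in controls and at 1.37, 0.716 and 0.765 FPKM in HuD KOs, with control 3 the highest. *Unc50* was at 14.9 to 16.8 FPKM in all 6 libraries, and its log2 fold change was 0.043.

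All 4 netrin genes had log2 fold changes below 0 over 5 libraries, and 3 of 4 over 6, where *Ntng2* was at 0.049. None of them passed the test. *Ntng1* encodes netrin-G1, a membrane-anchored netrin that binds the netrin-G ligand NGL-1 rather than Dcc and is known from thalamocortical axons. It was at 4.17, 3.52 and 7.07 FPKM in controls and at 3.19, 2.24 and 3.20 FPKM in HuD KOs. Every HuD KO library was below every control, by 0.324 FPKM for the nearest pair, and control 3 was far above the rest. The log2 fold change was -0.45 (SE 0.252, adjusted p = 0.995 in limma) over 5 libraries, -0.57 (unadjusted p = 0.0406, adjusted p = 0.871) over 6, and -0.21 with control 3 and HuD KO 2 both left out. *Ntng2*, which encodes netrin-G2, was at 4.50, 4.85 and 4.60 FPKM in controls and at 4.34, 5.94 and 4.39 FPKM in HuD KOs, where HuD KO 2 alone was above the controls. *Ntn1*, the classical secreted netrin, and *Ntn4*, known from basement membranes, had log2 fold changes of -0.099 and -0.037.

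Of the ephrins, *Efna3* (chr3:89313899-89322965, minus strand) was at 15.1, 18.2 and 17.4 FPKM in controls and at 20.2, 19.4 and 21.7 FPKM in HuD KOs. Every HuD KO library was above every control, by 1.20 FPKM for the nearest pair. The log2 fold change was 0.30 (SE 0.104, 95% interval 0.038 to 0.55, unadjusted p = 0.0311, adjusted p = 0.995 in limma) over 5 libraries and 0.26 (unadjusted p = 0.0499, adjusted p = 0.871) over 6. *Efna3* is overlapped over 3469 bases by an antisense gene, *Gm15998*, and since nothing states whether counting used the strand, reads of the pair cannot be told apart. The same limit holds for other guidance genes with antisense overlaps, such as *Neo1* (*Gm47271*, 54606 bases) and *Plxna1* (*Gm26811*, 11308 bases). Over 5 libraries the other 6 ephrins had log2 fold changes from -0.20 for *Efna1*, a ligand known from vessels, to 0.086 for *Efna5*, which is known from topographic maps. *Efnb3* was at 16.9, 15.2 and 35.8 FPKM in controls and at 20.8, 16.3 and 19.1 FPKM in HuD KOs, so control 3 was far above all other libraries and its log2 fold change of -0.072 had a wide interval (-0.97 to 0.83).

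Of the 12 Eph receptors, 6 had log2 fold changes above and 6 below 0 over 5 libraries, with a median of 0.030, and 7 were above and 5 below 0 over 6, with a median of 0.13. *Ephb6* was at 28.0, 33.2 and 13.9 FPKM in controls and at 33.0, 47.3 and 35.3 FPKM in HuD KOs, with control 3 low and HuD KO 2 high, and its log2 fold change was 0.52 (-0.36 to 1.40). *Epha4* was at 28.9, 32.8 and 17.1 FPKM in controls and at 29.98, 26.5 and 31.5 FPKM in HuD KOs, with control 3 again the lowest. *Ephb3*, a receptor of B-class ephrins known from the corpus callosum, was at 2.62, 3.72 and 1.89 FPKM in controls and at 4.20, 5.01 and 3.37 FPKM in HuD KOs. Control 2 lay above HuD KO 3, so the groups overlapped. The log2 fold change of *Ephb3* was 0.38 (SE 0.221, adjusted p = 0.995 in limma) over 5 libraries and 0.49 (unadjusted p = 0.0475, adjusted p = 0.871) over 6, and 0.21 with control 3 and HuD KO 2 both left out. *Epha8* was at 0.810, 0.963 and 0.831 FPKM in controls and at 0.982, 2.19 and 0.999 FPKM in HuD KOs. Its groups did not overlap, by a margin of 0.0182 FPKM, and HuD KO 2 alone moved its log2 fold change from 0.093 over 5 libraries to 0.32 over 6. *Epha7*, which has truncated isoforms in the developing cortex, was at 4.62, 4.52 and 7.03 FPKM in controls and at 8.46, 4.92 and 6.73 FPKM in HuD KOs, with the groups overlapping.

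**Figure D4:**
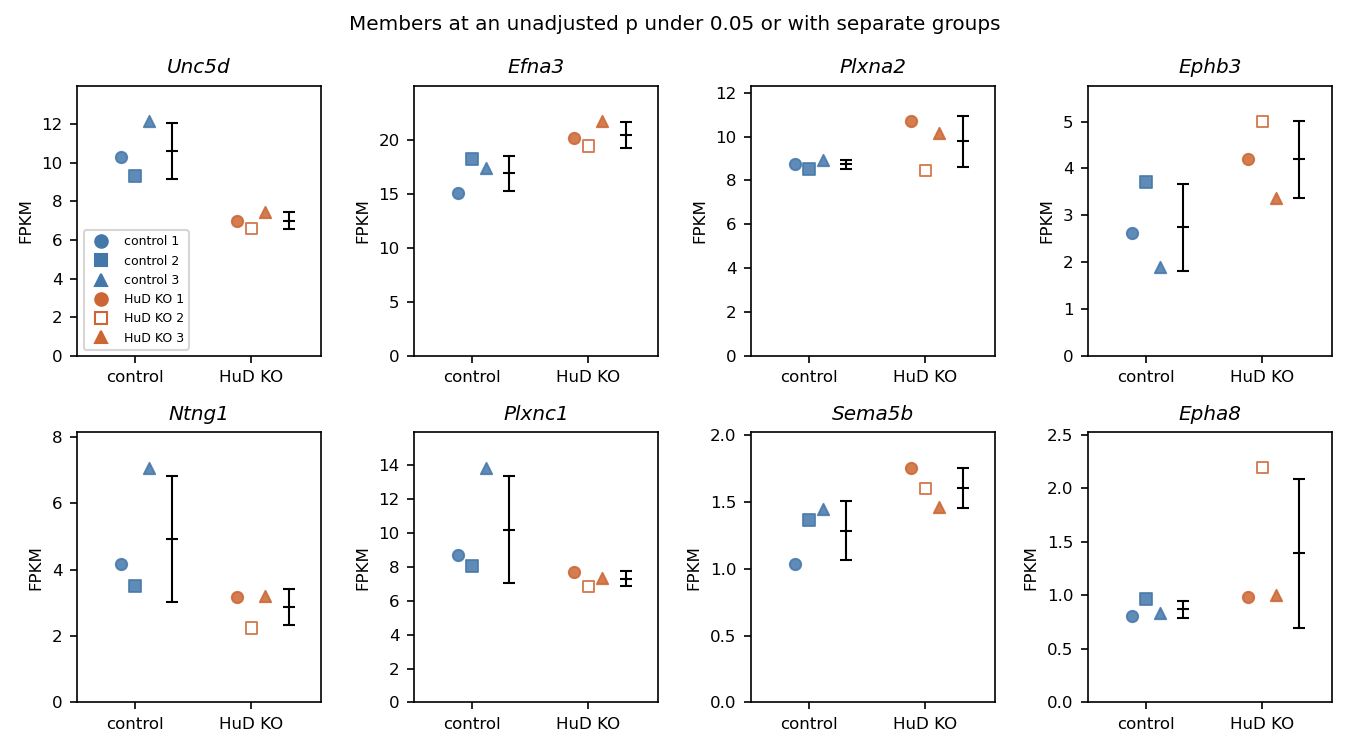
FPKM in each library of the 8 guidance genes that had an unadjusted p under 0.05 over 5 or 6 libraries or whose groups did not overlap over 6, with the mean and SD (n = 3 per genotype). *Unc5d* lies at 9.30 to 12.1 FPKM in controls and 6.59 to 7.44 FPKM in HuD KOs, while for *Ntng1* and *Plxnc1* control 3 stands above the other controls.

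Plexins were measured at 2.35 to 15.3 FPKM on average, and 4 of 9 had a log2 fold change above 0 over 5 libraries and 6 of 9 over 6, with medians of -0.050 and 0.055. *Plxna2* (chr1:194618218-194816869, plus strand), a receptor for class 6 and class 3 semaphorins, was at 8.74, 8.52 and 8.94 FPKM in controls and at 10.7, 8.46 and 10.2 FPKM in HuD KOs. HuD KOs 1 and 3 were above every control, and HuD KO 2 was below every control. The log2 fold change was 0.23 (SE 0.0778, 95% interval 0.039 to 0.43, unadjusted p = 0.0264, adjusted p = 0.995 in limma) over 5 libraries and 0.14 (unadjusted p = 0.263, adjusted p = 0.871) over 6. *Plxnc1*, the receptor of semaphorin 7A, was at 8.73, 8.05 and 13.9 FPKM in controls and at 7.73, 6.84 and 7.38 FPKM in HuD KOs. Every HuD KO library was below every control, by 0.317 FPKM for the nearest pair, and control 3 was far above the rest. The log2 fold change was -0.35 (adjusted p = 0.995 in limma) over 5 libraries, -0.40 over 6, and -0.13 with control 3 and HuD KO 2 both left out. *Plxna1* was at 9.70, 11.96 and 9.96 FPKM in controls and at 11.4, 12.6 and 11.9 FPKM in HuD KOs, and *Plxnd1*, the receptor of semaphorin 3E, was at 15.9, 15.7 and 13.4 FPKM in controls and at 14.0, 18.1 and 14.8 FPKM in HuD KOs, both with overlapping groups.

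Semaphorins were evenly split, with 10 of 20 above 0 over 5 libraries and 13 over 6. *Sema7a* was at 57.5, 63.6 and 22.002 FPKM in controls and at 54.8, 60.4 and 58.0 FPKM in HuD KOs, so 5 libraries lay close together and control 3 far below. Its log2 fold change of 0.37 had an interval from -0.75 to 1.5. *Sema6b* was at 25.1, 26.6 and 26.7 FPKM in controls and at 25.7, 35.4 and 26.02 FPKM in HuD KOs, with HuD KO 2 above the rest, and had a log2 fold change of -0.015 (-0.19 to 0.16) over 5 libraries. *Sema5b*, a transmembrane semaphorin with thrombospondin repeats, was at 1.04, 1.37 and 1.45 FPKM in controls and at 1.76, 1.603 and 1.46 FPKM in HuD KOs. Every HuD KO library was above every control, by only 0.00942 FPKM for the nearest pair, and the log2 fold change was 0.19 (adjusted p = 0.995 in limma over 5 libraries). *Sema3a*, a secreted repellent that signals through neuropilin-1, had a log2 fold change of 0.55, the highest among the 68 genes, with an interval from -0.50 to 1.61. It was at 0.732, 3.33 and 0.882 FPKM in controls and at 2.07, 1.93 and 3.10 FPKM in HuD KOs, with control 2 above all other libraries. *Sema5a* was at 1.81, 0.712 and 2.94 FPKM in controls and at 1.76, 1.39 and 0.340 FPKM in HuD KOs, and its groups overlapped.

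The neuropilins differed from each other in control 3. *Nrp2*, the co-receptor of semaphorin 3F, was at 2.28, 1.73 and 8.36 FPKM in controls and at 2.30, 1.89 and 2.05 FPKM in HuD KOs, with control 3 far above the 5 others. *Nrp1*, the co-receptor of semaphorin 3A and of VEGF, was at 1.48, 2.16 and 2.65 FPKM in controls and at 2.57, 1.74 and 2.40 FPKM in HuD KOs, and no library stood apart.

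All 3 Slit genes were higher in control 3 than in the other controls. *Slit1*, the Slit gene of highest mean, was at 6.60, 7.81 and 15.0 FPKM in controls and at 9.65, 10.5 and 8.91 FPKM in HuD KOs. All HuD KO libraries lay between control 3 and the 2 other controls. *Slit3* was arranged alike, at 3.72, 4.12 and 6.17 FPKM in controls and at 5.41, 6.45 and 4.63 FPKM in HuD KOs, save that HuD KO 2 lay above control 3. The log2 fold changes over 5 libraries were 0.0072 (-0.79 to 0.80) for *Slit1* and 0.11 (-0.39 to 0.60) for *Slit3*. Of their receptors, *Robo2* was at 6.95, 7.36 and 7.38 FPKM in controls and at 8.42, 5.32 and 7.44 FPKM in HuD KOs, with HuD KO 2 the lowest. *Robo1* was at 4.98, 4.57 and 8.07 FPKM in controls and at 5.31, 2.92 and 4.47 FPKM in HuD KOs, with control 3 the highest and HuD KO 2 the lowest. *Robo3*, known for the crossing of the midline by commissural axons, was at 3.94, 3.02 and 0.783 FPKM in controls and at 2.43, 4.00 and 2.29 FPKM in HuD KOs, with control 3 far below the rest. *Robo4* lay between 0.928 and 1.16 FPKM in all 6 libraries.

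Libraries of 1 genotype stood apart for many guidance genes. Control 3 was the library farthest from the median of the 6 for 30 of the 68 genes (44.1%, beside 24.7% of all genes tested). It was above all other libraries for 26 (38.2%, beside 28.5%) and below all others for 13 (19.1%, beside 19.0%). It lay over 1.5 times above the highest or below the lowest of the others for 15 (22.1%, beside 5.65%). These were *Efna5*, *Epha4*, *Ephb6*, *Robo3* and *Sema7a* on the low side, and *Efnb3*, *Epha3*, *Epha6*, *Nrp2*, *Ntng1*, *Plxnc1*, *Robo1*, *Sema3d*, *Sema5a* and *Unc5c* on the high side. HuD KO 2, the library the study set aside, was the farthest for 20 (29.4%, beside 46.3%), and lay over 1.5 times outside the others for 5 (7.35%, beside 9.52%), *Epha8*, *Robo1*, *Sema3c*, *Sema4f* and *Sema6c*. Control 3 is also the library with the high neuropeptide mRNAs and the low upper layer markers given above, and the part of those tissues in the guidance genes was not tested.

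**Figure D5:**
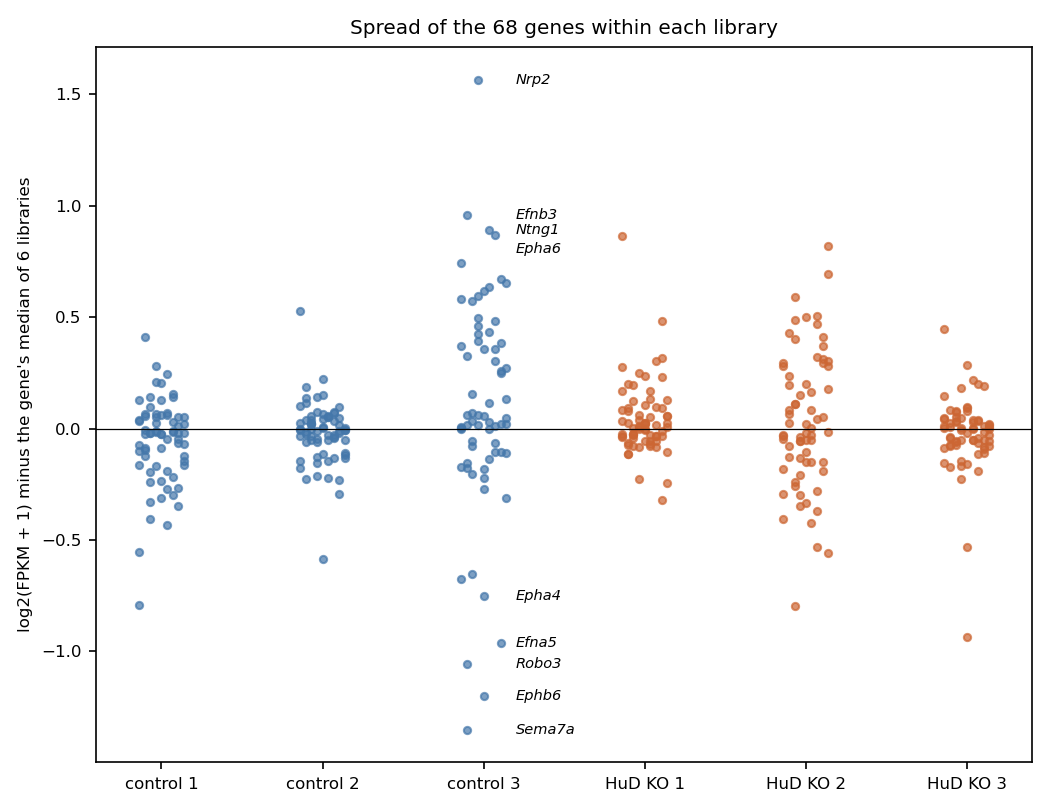
Level of each of the 68 genes in each library as log2(FPKM + 1) minus the gene's median over the 6 libraries, with the genes farthest from 0 named for control 3. Control 3 and, less widely, HuD KO 2 spread more than the 4 other libraries, and *Nrp2* in control 3 is the highest point.

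Without control 3, 0 of 68 genes passed the adjusted threshold (0.0845% of all 13018 genes tested did), and 9 had an unadjusted p under 0.05 in limma (13.2%, beside 6.27%). On the higher side these were *Efna3*, *Efnb3*, *Epha7*, *Plxna2*, *Plxna4*, *Slit1* and *Slit3* (10.3%, beside 3.43%), and on the lower side *Robo3* and *Unc5d* (2.94%, beside 2.83%). This comparison rests on 2 libraries per genotype. With HuD KO 2 added, 0 passed the adjusted threshold (beside 0.0384% of all genes), and 3 had an unadjusted p under 0.05 (4.41%, beside 2.57%), *Slit1* and *Slit3* on the higher side (2.94%, beside 1.4%) and *Unc5d* on the lower (1.47%, beside 1.17%). *Unc5d* was the only guidance gene at an unadjusted p under 0.05 in all 4 of these sets of libraries, with and without control 3 and with and without HuD KO 2. All 4 sets share controls 1 and 2 and HuD KOs 1 and 3, so they are not independent of each other. *Unc5d* was also singled out by its p in these data.

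Guidance genes that the study lists as HuD targets from earlier binding experiments are 7 of the 68, *Epha3*, *Nrp1*, *Plxna2*, *Plxna4*, *Sema4d*, *Sema5a* and *Sema6a*. In limma 0 of them passed, and 1 (*Plxna2*) was at an unadjusted p under 0.05 over 5 libraries, beside 3.43% of all genes tested. Over 6 libraries 0 were, beside 3.48%. Over 5 libraries 4 were above and 3 below 0, with a median log2 fold change of 0.030. *Plxna4*, which forms receptors with neuropilin-1, was at 7.60, 7.88 and 8.998 FPKM in controls and at 9.75, 8.62 and 9.08 FPKM in HuD KOs, where HuD KO 2 lay below control 3. *Neo1*, *Plxnb3* and *Sema6c* are among genes that the study lists with altered splicing in these libraries, and their log2 fold changes over 5 libraries were 0.040, 0.051 and -0.022. Over 6 libraries all 3 were above 0. The study chose that list on these samples, so it is not independent of them. Genes known from blood vessels (*Robo4*, *Ephb4*, *Efnb2*, *Efna1*, *Sema3g*, *Plxnd1*, *Unc5b* and *Nrp1*) were split into 4 above and 4 below 0 over 5 libraries, with a median of -0.013, and 5 of the 8 were above 0 over 6, with a median of 0.045. Those known from the oligodendrocyte lineage (*Sema4d*, *Plxnb3*, *Sema5a* and *Sema6a*) were 2 above and 2 below 0 over 5 and over 6 libraries. The 11 markers of meningeal fibroblasts found of 12 listed were lower in sum in every HuD KO library than in every control. They summed to 344.3, 296.4 and 460.5 FPKM in controls and to 219.4, 131.9 and 249.1 FPKM in HuD KOs. Over 5 libraries 11 of 11 were below 0, beside 7276 of all 13121 genes tested. In limma 6 of them were lower at an unadjusted p under 0.05, beside 1.81% of all genes, and 0 passed the adjusted threshold. Other lists also lay mostly to 1 side over 5 libraries. Below 0 were 9 of 10 endothelial, 9 of 10 astrocyte, 8 of 9 microglia and 7 of 8 pericyte and smooth muscle markers. So were 5 of 6 oligodendrocyte precursor markers, 5 of 5 red blood cell markers and 6 of 6 hypothalamic neuropeptides tested. Above 0 were 12 of 12 oligodendrocyte and myelin, 8 of 8 striatal, 10 of 12 deep layer and 7 of 8 excitatory neuron markers. Pan-neuronal markers had 6 of 8 above 0, and upper layer markers were split into 4 above and 4 below. The part of these cells in the guidance genes was not tested.

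Of 110 listed genes that act downstream of these receptors or beside them, 106 were tested, and 0 passed the adjusted threshold in limma over 5 or 6 libraries. Over 5 libraries 3 of the 106 had an unadjusted p under 0.05 (2.83%, beside 3.43% of all genes), 1 on the higher and 2 on the lower side. Over 6 libraries 2 were on the higher and 1 on the lower side (2.83% together, beside 3.48% of all genes). *Islr2*, which encodes a membrane protein with leucine-rich repeats needed for axon growth, was at 6.59, 7.57 and 7.41 FPKM in controls and at 9.51, 10.2 and 8.46 FPKM in HuD KOs, every HuD KO library above every control (log2 fold change 0.29, adjusted p = 0.995). *Rnd2* was at 15.0, 29.4 and 38.7 FPKM in controls and at 11.7, 18.9 and 13.4 FPKM in HuD KOs. Its controls were spread from 15.0 to 38.7 FPKM, and HuD KO 2 lay above control 1 (log2 fold change -0.99, SE 0.377, adjusted p = 0.995). *Rras*, whose GTPase is inactivated by plexins, was at 6.15, 6.46 and 6.29 FPKM in controls and at 4.87, 7.78 and 5.38 FPKM in HuD KOs, with HuD KO 2 above and HuD KOs 1 and 3 below all controls. In the Eph list *Nck2* had the smallest p, in the Slit list *Arhgap39* and in the netrin list *Ptk2*, the focal adhesion kinase, with log2 fold changes of 0.37, 0.14 and 0.42. *Ptk2* was at an unadjusted p = 0.026 in limma over 6 libraries, with control 3, at 7.56 FPKM, below all others.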

How the data were processed

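RNA-seq of neocortex from 3 control and 3 HuD KO mice was used. The submitters' processing notes name FastQC 0.11.5, cutadapt, Trimmomatic and STAR 2.7.3a, with mm10 as the genome build. The FPKM values were computed by the authors before they were deposited. The program, annotation and strand setting used for them are not stated. The deposited tables also hold the authors' own comparison (group means, fold changes, p and q values), which was not used, and 1 line of sums that names no gene was left out. The 68 genes and the lists were chosen with earlier results of these data known.

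Values were transformed as log2(FPKM + 1), a pseudocount of 1, and each gene whose mean reached 0.5 FPKM was tested with limma 3.58.1 (eBayes with a trend) in R 4.3.3. Adjustment was by Benjamini-Hochberg over all genes tested. The fit was also run on simulated data. Their noise was independent between genes and libraries, so they do not test the fit where a whole library stands apart. Exact permutation tests used SciPy 1.17.1 in Python 3.11.15 (NumPy 2.4.6, pandas 2.3.3), and matplotlib 3.10.9 drew the figures. Each limma p-value sets the difference between genotypes against the spread between mice within a genotype, pooled over both genotypes and moderated across genes. 3′ UTRs were those of GENCODE M21, taking for each gene the coding transcript with the longest one. In that annotation 13266 of 13299 gene IDs were found when the version was ignored. Genes of like length had a UTR of 0.8 to 1.25 times the length. Genes were named by rule: those at an unadjusted p under 0.05 or with groups that do not overlap, the highest and lowest means of each family, the 6 with the widest range within a genotype, and up to 3 partners by smallest p from each list. Further genes were named after seeing their values. As alternatives, all 6 libraries were fitted, the pseudocount was set to 0.1, the filter was dropped or raised to 2 FPKM, values were scaled by the median or by quantiles, the trend was left out, the replicate number entered as a block, and each library was left out in turn. No pairing by replicate number was assumed, since the labels state none. Deviations of libraries of one number from their group means correlated at -0.13, 0.18 and 0.04. With 3 libraries per group, and no libraries of unlike number set beside them, these values cannot exclude a pairing of littermates.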

Additional observations from a re-analysis of the deposited data

How the results depend on the processing

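No guidance gene passed the adjusted threshold under any alternative run, and *Elavl4* passed under all. None of the 8 genes tracked reversed its direction, but they were picked on these same values. For the 6 whose groups did not overlap over all libraries, leaving out a library could not reverse it. The count at an unadjusted p under 0.05 on the higher side, 2 over 5 libraries, ranged from 0 (without control 1, HuD KO 1 or HuD KO 3) to 7 (without control 3) when 1 library was left out, and from 0 to 3 (without control 2) when 1 library was left out of all 6, an alternative added after the data were seen. On the lower side it was 1 over 5 libraries and 2 over all 6, and ranged from 1 to 3 with 1 of the 5 left out (3 without control 2) and up to 4 with 1 of the 6 left out (without control 2). With the replicate number as a block, a pairing that no label states, it was 4 on the higher and 2 on the lower side over 5 libraries, and 2 on the lower side over 6. The share over all genes was taken only for the sets with and without control 3 and HuD KO 2 given above. In the other settings these counts do not tell guidance genes from genes at large. The median log2 fold change over the guidance genes, -0.0068, ranged from -0.030 to 0.041 with 1 of the 5 libraries left out, and was 0.061, 0.063 and 0.074 over 6 libraries without control 3, HuD KO 1 or HuD KO 3. *Unc5d* ranged from -0.57 to -0.40 with 1 of the 5 libraries left out and *Efna3* from 0.22 to 0.35. *Unc5d* without HuD KO 1, and *Efna3* without control 1, HuD KO 1 or HuD KO 3, were not at an unadjusted p under 0.05. With 3 and 2 libraries per genotype, intervals remained wide for genes in which control 3 stood apart.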
